A study of Mus musculus with 2 samples.

Results

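The chemokine system of the newborn mouse intestine was described through 56 genes, 36 encoding chemokine ligands and 20 encoding chemokine receptors. They were taken by symbol from a list of the family and matched by Ensembl identifier to rows of both gene tables, among 43346 Ensembl genes in all, and every listed gene was found. RNA longer than 200 nt was sequenced from the intestine of 2 pups of the B6NCrl strain at 0 days of age, littermates from 1 pregnancy, each giving 1 library made from 10 ng of RNA. The labels state no treatment or mutant allele, sex was not collected, and no source used here names the gut segments taken. Both libraries belong to 1 group, so the comparisons are between genes and between the littermates.

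Values are in TPM, the deposited abundance per transcript length, given for pup 1 and then pup 2 or as mean ± SD (n = 2). The word detected stands for at least 1 TPM in each pup. No p-value is given, because 2 pups allow an exact sign-flip p of 0.5 at the least. Expected counts over genes came to 44568098 in pup 1 and 34797495 in pup 2. At these depths a gene listed at 0 can hide up to 3 reads, which is 0.0673 CPM (counts scaled to library size) in pup 1 and 0.0862 CPM in pup 2. The reads carry no molecular identifiers, so intervals and floors cover counting error and nothing else. Of markers of the labelled tissue, 10 of 10 epithelial and 8 of 8 smooth muscle genes were detected, beside 59.1% of all protein-coding genes. The marker lists were chosen with earlier results of these data known, so these counts describe the tissue and are no independent check of its label.

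Chemokines are small proteins that guide migrating cells along gradients, and they act on receptors that signal through inhibitory G proteins. Atypical receptors bind the same ligands without that signal and take them up, which shapes the gradients. Homeostatic ligands place lymphocytes and precursors in healthy tissue, inflammatory ligands recruit leukocytes during infection or injury, and some ligands do both. In the small intestine the epithelial ligand Ccl25 and its receptor Ccr9 are known for drawing lymphocytes into the mucosa.

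The classes are named for the spacing of the first cysteines of the mature protein, and the stretches below show it in 4 abundant ligands of the CC, CXC and CX3C classes. Each is 48 bases of coding sequence from the GENCODE M21 transcripts, read 5′ to 3′ on the coding strand, with the defining cysteine codons in capitals.
Ccl25: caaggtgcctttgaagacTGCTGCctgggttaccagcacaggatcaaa
Ccl21a: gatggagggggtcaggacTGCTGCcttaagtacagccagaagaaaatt
Cxcl12: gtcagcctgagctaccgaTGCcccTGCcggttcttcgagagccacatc
Cx3cl1: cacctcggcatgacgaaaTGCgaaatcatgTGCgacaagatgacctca
The codons are adjacent in Ccl25 (codons 30 and 31) and Ccl21a (31 and 32), have 1 codon between them in Cxcl12 (30 and 32) and have 3 between them in Cx3cl1 (32 and 36). In the leading coding transcript of each ligand, the adjacent pair was found in 18 of 19 CC ligands and the 1-codon spacing in 15 of 15 CXC ligands. The exception was Ccl27a, described with its transcripts, and Xcl1 of the XC class has neither spacing.

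Ligands were far more abundant than receptors. Of the 36 ligands 19 were detected, and of the 20 receptors 5. These 24 of 56 members (42.9%) stand beside 59.1% of all 21474 protein-coding genes. The ligand values summed to 658 TPM in pup 1 and 667 TPM in pup 2, and the receptor values to 27.0 and 27.8 TPM. The ligand sum exceeded the receptor sum 24.4-fold in pup 1 and 24.0-fold in pup 2 (24.2 ± 0.307). All 13 members at a mean gene total of 10 TPM or more were ligands. The median ligand stood at 1.60 TPM and the median receptor at 0.743 TPM, against 3.0 TPM for protein-coding genes. In whole tissue, fewer cells of a type and less RNA per cell cannot be told apart, here and in all levels that follow.

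**Figure D1:**
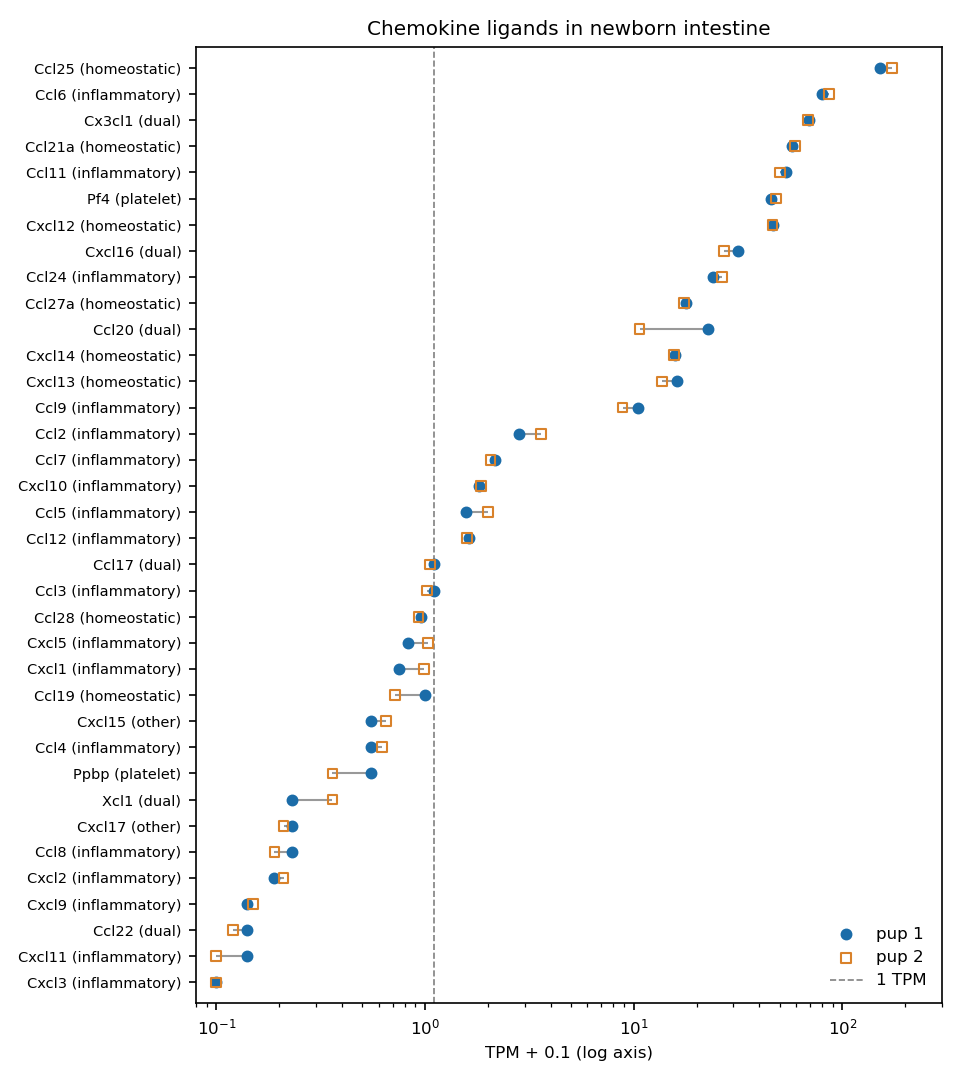
TPM + 0.1 (log axis) of the 36 ligands in pup 1 (filled circles) and pup 2 (open squares), ordered by mean, with the class of use in brackets and a dashed line at 1 TPM. Ccl25 is highest at 162 TPM on average, Ccl20 has the widest gap between pups among detected ligands, and 17 ligands lie below the line in at least 1 pup.

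Homeostatic ligands carried the largest part of the ligand RNA. Their 8 genes summed to 307 TPM in pup 1 and 326 TPM in pup 2, and 6 of 8 were detected. Ccl25 (ENSMUSG00000023235.9, chromosome 8, 4325210 to 4360020, plus strand, GRCm38) led all members with 152 TPM in pup 1 and 173 TPM in pup 2. It ranked 812 among protein-coding genes by mean and made up 24.5% of the ligand sum. Ccl21a (ENSMUSG00000094686.1, chromosome 4, 42772860 to 42773993, minus strand), a lymphatic ligand that guides cells bearing Ccr7, stood at 57.2 and 59.0 TPM. Cxcl12 (ENSMUSG00000061353.7, chromosome 6, 117168535 to 117181367, plus strand), a stromal ligand that guides precursors and vessels, stood at 46.5 and 46.2 TPM. The pups lay close together for Cxcl12 and Ccl21a and further apart for Ccl25 (SD 14.7 TPM on a mean of 162 TPM). Ccl27a, best known from skin, stood at 17.7 and 17.3 TPM. Cxcl14, an epithelial and stromal ligand whose receptor is not settled, stood at 15.6 and 15.5 TPM. Cxcl13, which gathers B cells in lymphoid follicles, stood at 16.1 and 13.6 TPM. The remaining homeostatic ligands lay below 1 TPM, namely Ccl28 of mucosal epithelia (0.845 ± 0.0212 TPM) and Ccl19, the other ligand of Ccr7 (0.760 ± 0.198 TPM).

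Inflammatory ligands ranged from a few abundant genes to others below detection. Their 18 genes summed to 180 TPM in pup 1 and 185 TPM in pup 2, with 9 of 18 detected and 3 of 18 at a mean under 0.1 TPM. Of all 21474 protein-coding genes, 59.1% were detected and 5689 had a mean under 0.1 TPM. Ccl6 (ENSMUSG00000018927.3, chromosome 11, 83587882 to 83593087, minus strand), a myeloid ligand of rodents, stood at 79.8 and 85.8 TPM. It was second among all members by gene total, of which its coding transcript held 49.6 and 51.1 TPM. Ccl11 (chromosome 11, 82057823 to 82062955, plus strand), eotaxin, which draws eosinophils, stood at 53.5 and 50.1 TPM. Ccl24, another eotaxin, stood at 23.9 and 26.4 TPM. These 3 genes held most of the inflammatory sum in both pups, Ccl6 alone 45.3% of it. Ccl9, a relative of Ccl6, stood at 10.4 and 8.74 TPM. The monocyte ligands were lower, with Ccl2 at 2.71 and 3.51 TPM, Ccl7 at 2.06 and 1.96 TPM and Ccl12 at 1.52 and 1.49 TPM. Cxcl10, an interferon-induced ligand of Cxcr3, stood at 1.71 and 1.75 TPM. Ccl5, a ligand made by T cells and other leukocytes, stood at 1.48 and 1.90 TPM.

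The neutrophil ligands that act on Cxcr2 were all below detection. Cxcl5 stood at 0.830 ± 0.141 TPM, Cxcl1 at 0.770 ± 0.170 TPM and Cxcl2 at 0.1 ± 0.0141 TPM, and Cxcl3 was listed at 0 in both pups, where 3 reads would be 0.0917 TPM in pup 1 and 0.120 TPM in pup 2. The interferon-induced ligands Cxcl9 (0.0450 ± 0.00707 TPM) and Cxcl11 (0.0200 ± 0.0283 TPM) had at most 4 reads per pup. The annotation classes the Cxcl11 gene as a polymorphic pseudogene and every other member as protein coding. Ccl3 (0.960 ± 0.0566 TPM), Ccl4 (0.485 ± 0.0495 TPM) and Ccl8 (0.110 ± 0.0283 TPM), which recruit leukocytes, complete the inflammatory group. At these levels many neighbours overlapped between pups, and a few reads decide the value.

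Ligands with both uses were led by the membrane-bound chemokines. Cx3cl1 (ENSMUSG00000031778.8, chromosome 8, 94772009 to 94782427, plus strand), fractalkine, stood at 68.9 and 68.3 TPM, next after Ccl6 by gene total. Cxcl16 (chromosome 11, 70453983 to 70459984, minus strand), also anchored in the membrane, stood at 31.5 TPM in pup 1 and 27.0 TPM in pup 2. Ccl20 (ENSMUSG00000026166.10, chromosome 1, 83116766 to 83119167, plus strand), an epithelial ligand for cells bearing Ccr6, stood at 22.6 TPM in pup 1 and 10.6 TPM in pup 2. Ccl20 is the detected member on which the pups differed most. Ccl17 (0.985 ± 0.0354 TPM) lay just under the threshold, and Xcl1 (0.195 ± 0.0919 TPM) and Ccl22 (0.0300 ± 0.0141 TPM) lay well below it.

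Pf4 (chromosome 5, 90772435 to 90773383, plus strand), a chemokine stored in platelet granules, stood at 45.5 TPM in pup 1 and 48.0 TPM in pup 2. Its platelet partner Ppbp stood at 0.450 and 0.260 TPM. Of the 8 platelet and megakaryocyte markers 4 were detected, Pf4, Itga2b (2.02 and 2.05 TPM), Gp1bb and Gp9, and Gp6 had no read in either pup. Pf4 thus stood far above the rest of its marker list in both pups. Cxcl15 (0.5 ± 0.0707 TPM) and Cxcl17 (0.120 ± 0.0141 TPM), known from other mucosae, were not detected.

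In the order of ligand means, neighbours from Ccl25 down to Ccl11 did not overlap between pups. Pf4 and Cxcl12 could not be ordered, because Pf4 in pup 1 lay below Cxcl12. Neither could Ccl27a, Ccl20, Cxcl14 and Cxcl13, whose values overlapped from one to the next. Cxcl13 stood above Ccl9, and Ccl9 above Ccl2, in both pups. The 5 highest ligands, Ccl25, Ccl6, Cx3cl1, Ccl21a and Ccl11, held 62.5% of the ligand sum in pup 1 and 65.4% in pup 2.

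**Figure D2:**
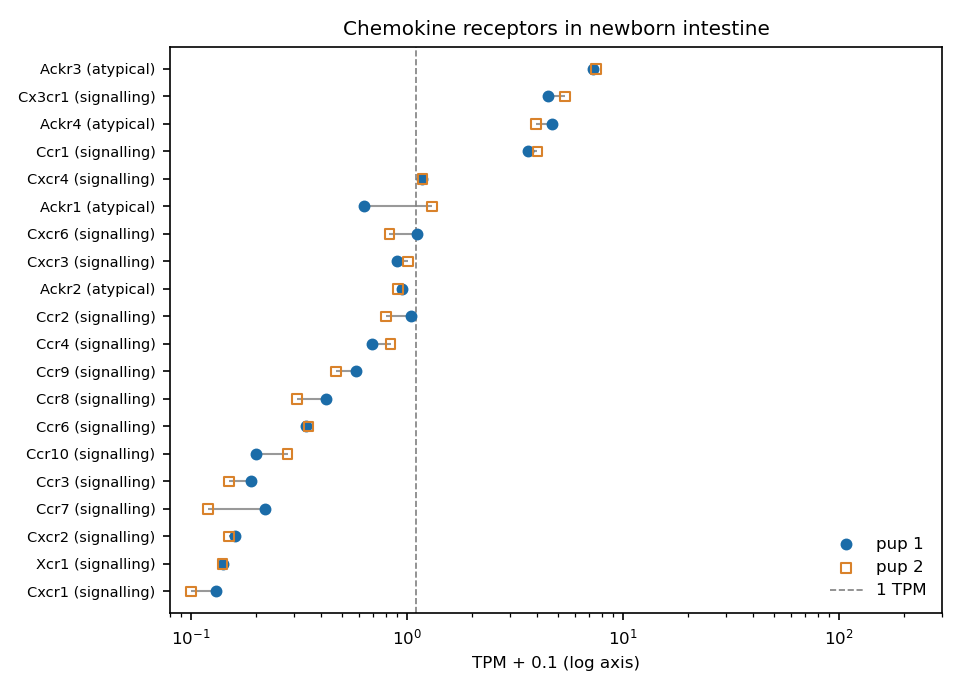
TPM + 0.1 (log axis, same range as for the ligands) of the 20 receptors in pup 1 (filled circles) and pup 2 (open squares), with a dashed line at 1 TPM. The highest is Ackr3 at 7.29 TPM on average, and 5 receptors lie at or above the line in both pups.

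Among the receptors an atypical one was highest. Ackr3 (ENSMUSG00000044337.5, chromosome 1, 90203980 to 90216751, plus strand), which binds and clears Cxcl12 and Cxcl11, stood at 7.18 and 7.4 TPM. Ackr4 (chromosome 9, 104084157 to 104126933, minus strand), which takes up Ccl19, Ccl21a and Ccl25, stood at 4.57 and 3.87 TPM. The 4 atypical receptors summed to 13.1 TPM in pup 1 and 13.3 TPM in pup 2, close to the 13.8 and 14.5 TPM of the 16 signalling receptors. Ackr2, a scavenger of inflammatory CC ligands, stood at 0.850 and 0.810 TPM. Ackr1, carried by venules and red cells, stood at 0.530 TPM in pup 1 and 1.21 TPM in pup 2, so it was detected in 1 pup.

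Of the 16 signalling receptors 3 were detected. Cx3cr1 (ENSMUSG00000052336.6, chromosome 9, 119901616 to 120069879, minus strand), the receptor of Cx3cl1 on macrophages, stood at 4.4 and 5.28 TPM. Ccr1 (chromosome 9, 123962124 to 123968692, minus strand), a myeloid receptor, stood at 3.52 and 3.92 TPM. Cxcr4 (chromosome 1, 128588199 to 128592293, minus strand), the signalling receptor of Cxcl12, stood at 1.08 TPM in both pups. Ackr3 stood above the other receptors in both pups, while Cx3cr1, Ackr4 and Ccr1 overlapped from one to the next. Cxcr4 lay below these 4 and just above the threshold.

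The other 13 signalling receptors were below detection. Cxcr6, of resident T cells and innate lymphoid cells, stood at 1.01 TPM in pup 1 and 0.730 TPM in pup 2. Cxcr3 (0.855 ± 0.0778 TPM), Ccr2 of monocytes (0.820 ± 0.170 TPM) and Ccr4 (0.665 ± 0.106 TPM) lay in the same range. Ccr9, the gut-homing receptor, stood at 0.480 TPM in pup 1 and 0.370 TPM in pup 2, on 58 and 31.6 expected counts. Ccr8 (0.265 ± 0.0778 TPM), Ccr6 (0.245 ± 0.00707 TPM) and Ccr10 (0.140 ± 0.0566 TPM) followed. Ccr3, Ccr7, Cxcr2, Xcr1 and Cxcr1 had means under 0.1 TPM and at most 10 reads per pup. Markers of leukocytes are given beside these receptors. Of the T cell markers 2 of 8 were detected, Trac (17.1 and 18.6 TPM) and Lck (2.46 and 2.47 TPM), and Cd8a was at 0.05 ± 0.0566 TPM. Of the B cell markers 2 of 7 were detected, Ighm and Cd79b, and Pax5 had no read in either pup. Macrophage markers were all detected, 10 of 10, led by Csf1r (82.3 and 78.1 TPM), C1qb, Tyrobp and C1qa. Which cells held the receptor RNA was not tested.

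In most pairs the ligand stood above the receptor within each pup. For 38 ligand and receptor pairs the log2 ratio of ligand TPM + 0.1 over receptor TPM + 0.1 was computed in each pup, on values per transcript length. The ligand was higher in both pups in 29 pairs and the receptor in 9, with a median log2 ratio of 1.81. The pairs share members, 30 ligands and 19 receptors in all, so they are not independent, and a direction does not cover counting error. Among the 29 are Xcl1 over Xcr1, on 2 and 3 reads against 6 and 5, and Cxcl2 over Cxcr2, on 3 and 3 reads against 6 and 4. Both partners were detected in 8 pairs, the ligand alone in 13, the receptor alone in 3 and neither in 14. Cxcl13, Cxcl14, Pf4, Ccl4, Cxcl15 and Cxcl17 were not paired here.

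**Figure D3:**
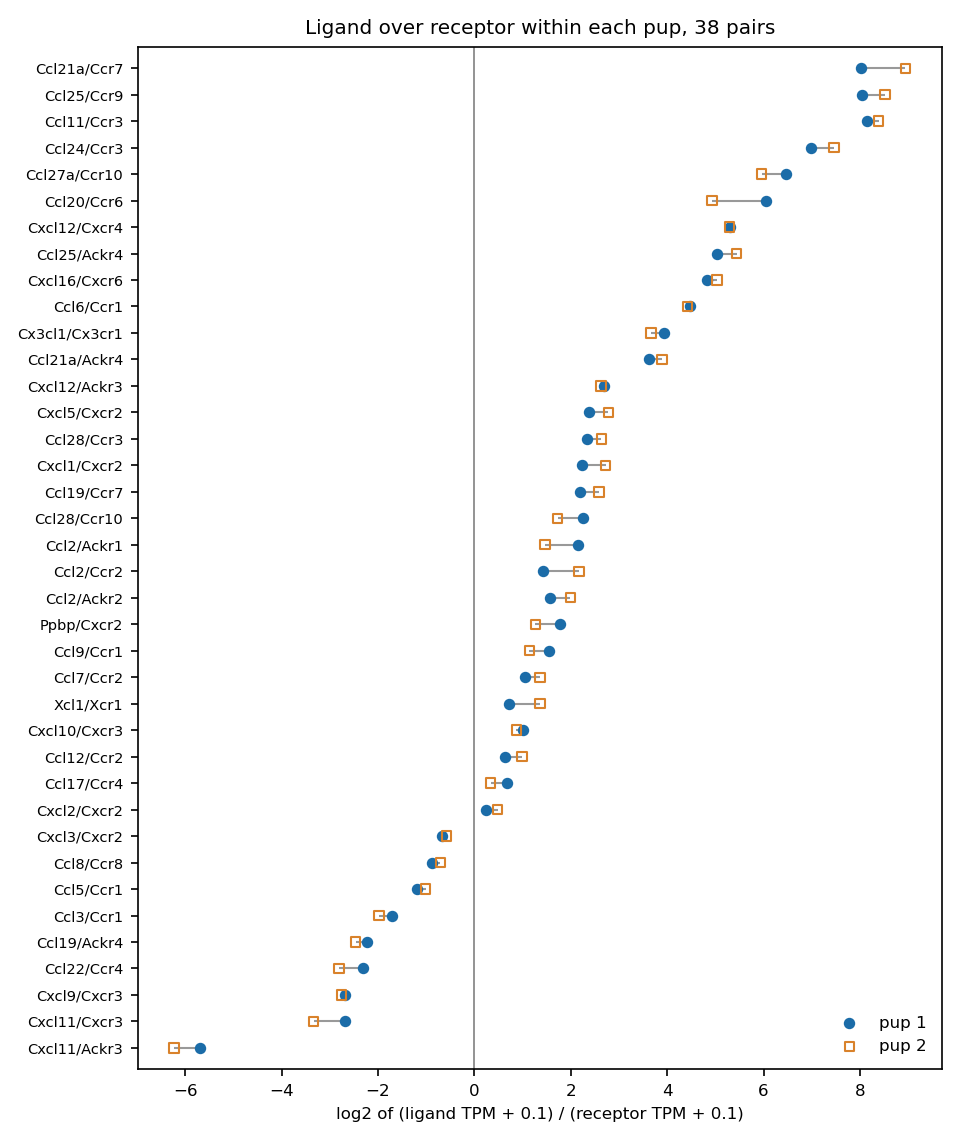
Log2 ratio of ligand over receptor (TPM + 0.1) in pup 1 (filled circles) and pup 2 (open squares) for 38 pairs, ordered by mean, with a line at equal levels. Ratios run from 8.48 for Ccl21a over Ccr7 to -5.96 for Cxcl11, annotated as a polymorphic pseudogene, over Ackr3. In every pair both pups lie on the same side of the line.

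In the 6 pairs with the highest ratios a detected ligand stood over an undetected receptor. Ccl21a over Ccr7 had a log2 ratio of 8.48 ± 0.65, resting on 8 reads of Ccr7 in pup 1 and 1 read in pup 2. Ccl25 over Ccr9 had 8.03 in pup 1 and 8.52 in pup 2, a mean of 310-fold. Ccl11 over Ccr3 had 8.26 ± 0.17 and Ccl24 over Ccr3 7.22 ± 0.34, with 10 and 4 reads of Ccr3. Ccl27a over Ccr10 had 6.22 ± 0.36 and Ccl20 over Ccr6 5.49 ± 0.80. Cxcl16 over Cxcr6, further down the order, had 4.93 ± 0.14. With receptors this close to the floor the size of the ratio depends on the constant added. With 1 TPM added, the log2 ratio was 5.79 for Ccl21a over Ccr7, 6.84 for Ccl25 over Ccr9 and 5.62 for Ccl11 over Ccr3. On counts without length normalisation, with 1 count added, it was 6.79 for Ccl25 over Ccr9. All these ratios use gene totals. Coding transcripts took 58.7% of Ccl27a in pup 1 and 65.75% in pup 2, and the coding Cxcl16-201 stood at 13.5 and 10.8 TPM.

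In the 8 pairs with both partners detected, the ratio rested on more reads of the receptor. Cxcl12 stood 39.4-fold above Cxcr4 (log2 5.30 in pup 1 and 5.29 in pup 2) and 6.28-fold above Ackr3 (log2 2.68 and 2.62). The atypical receptor thus stood closer to Cxcl12 than the signalling receptor did, in both pups. Ccl25 stood 37.6-fold above Ackr4 (log2 5.23 ± 0.30), and Ccl21a 13.5-fold above it (log2 3.76 ± 0.20). Ccl6 stood 21.7-fold above Ccr1 (log2 4.44 ± 0.034), and Cx3cl1 stood 14.0-fold above Cx3cr1 (log2 3.80 ± 0.19). Ccl9 stood 2.53-fold above Ccr1 (log2 1.34 ± 0.29). The coding transcript of Ccl9 alone stood at 5.63 and 4.13 TPM, against 3.52 and 3.92 TPM for Ccr1, so in pup 2 they were close. Among the 8 pairs, Ccl5 was the one with the receptor higher, at a log2 ratio of -1.10 ± 0.13 over Ccr1.

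The receptor was detected without its ligand in 3 pairs, and in the remaining 5 pairs with the receptor higher neither partner was detected. Ccl3 over Ccr1 had a log2 ratio of -1.85 ± 0.18 and Ccl19 over Ackr4 -2.34 ± 0.17. Cxcl11, annotated as a polymorphic pseudogene, had -5.96 ± 0.37 over Ackr3, on 2 reads of Cxcl11 in pup 1 and none in pup 2. Of the 2 ligands of Ccr7, Ccl21a was detected and Ccl19 was not, and Ackr4 stood below Ccl21a and above Ccl19 in both pups. The monocyte pairs lay between these extremes. Ccl2 over Ccr2 had a log2 ratio of 1.80 ± 0.52, Ccl7 over Ccr2 1.21 ± 0.22 and Ccl12 over Ccr2 0.82 ± 0.25. Ccl2 over Ackr1 and over Ackr2 had 1.81 ± 0.49 and 1.78 ± 0.30. Cxcl10 over Cxcr3 had 0.94 ± 0.095. On counts without length normalisation, with 1 count added, the mean log2 ratio over Ccr2 was -0.94 for Ccl7 and -2.00 for Ccl12, the opposite sign. For Ccl2 it was -0.26, with opposite signs in the pups, so no direction is stated.

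Many members lie in clusters of neighbouring genes, and levels within several clusters differed widely. At a gap of at most 300 kb, 35 members formed 9 clusters. On chromosome 8, Ccl22, Cx3cl1 and Ccl17 lie within 66.4 kb (94745590 to 94812036) and stood at 0.0300, 68.6 and 0.985 TPM on average. On chromosome 5, Pf4 at 46.8 TPM lies between Ppbp and Cxcl3, in a cluster of 7 genes over 147 kb (90759360 to 90905938) whose other members were all below 1 TPM. Of the 5 genes Ccl2, Ccl7, Ccl11, Ccl12 and Ccl8 over 81.2 kb of chromosome 11 (82035571 to 82116799), Ccl11 in the middle stood at 51.8 TPM and the others between 0.110 and 3.11 TPM. A second cluster on that chromosome holds Ccl6 at 82.8 TPM beside Ccl9, Ccl5, Ccl3 and Ccl4 (83525778 to 83664683). These 4 are examples from the 9 clusters. In another, Cxcl9, Cxcl10 and Cxcl11 on chromosome 5, the highest mean was 1.73 TPM. The largest receptor cluster, 6 genes over 435 kb of chromosome 9 (123678439 to 124113557), had Ccr1 as its only detected member.

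Reads of Ccl21a cannot be separated cleanly from its copies. In the reference annotation Ccl21a shares 80.6% of its 31-base words with the predicted gene Gm21541, 79.5% with Gm13304 and 36.9% each with Ccl21b and Gm10591. The deposited estimates gave Gm21541 24.7 TPM in pup 1 and 25.8 TPM in pup 2, and Gm13304 12.4 and 7.50 TPM. Ccl21b and Gm10591 were each listed at 0 in pup 1 and 3.38 TPM in pup 2. Ccl21a and these 4 copies together came to 94.2 TPM in pup 1 and 99.0 TPM in pup 2, of which 60.1% was assigned to Ccl21a. Their sum would stand above Ccl6 and below Ccl25 in both pups. Ccl27a and its 5 copies came to 20.4 and 19.4 TPM, with 87.7% assigned to Ccl27a. Ccl19 shares 58.8% of its words with Gm2564 (0.590 and 1.16 TPM), so its level is uncertain too. In all, 13 members share an exon base with another gene or at least 5% of their 31-base words, and 43 share neither. Ccl25 overlaps Elavl1 on the opposite strand by 204 exonic bases and Cxcl16 overlaps Zmynd15 by 552. Ackr4 overlaps Acad11 by 479 and Ccr9 overlaps AC165425.1 by 1932, all on opposite strands. No source used here states the use of strand, so reads in these overlaps cannot be told apart. Ackr1 overlaps Cadm3 on the same strand, and 23.0% of its words are shared. Ccr9 also overlaps Gm17200 on the same strand, by 269 exonic bases.

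Cxcl12 RNA was assigned mainly to the shortest coding form. Its 3 annotated coding forms share their first 267 bases of coding sequence and differ in the end, a stretch known to bear on binding to heparan sulphate at cell surfaces. The coding ends are given from base 238 to the stop codon, read 5′ to 3′ from the GENCODE M21 transcripts (chromosome 6, plus strand), with the bases particular to each form in capitals.
Cxcl12-202: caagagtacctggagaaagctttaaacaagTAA
Cxcl12-203: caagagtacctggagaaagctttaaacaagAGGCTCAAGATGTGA
Cxcl12-201: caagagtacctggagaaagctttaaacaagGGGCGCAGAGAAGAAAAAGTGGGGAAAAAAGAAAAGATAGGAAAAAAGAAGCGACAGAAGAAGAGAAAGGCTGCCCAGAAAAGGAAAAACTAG
With the stop codon included the coding sequences are 270, 282 and 360 bases long. Cxcl12-202 took 88.9% of the gene in pup 1 and 90.1% in pup 2. Cxcl12-203 took 7.79% and 6.08%, and Cxcl12-201, whose end is rich in lysine and arginine codons, took 2.47% and 2.48%. The order of the 3 forms was the same in both pups.

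**Figure D4:**
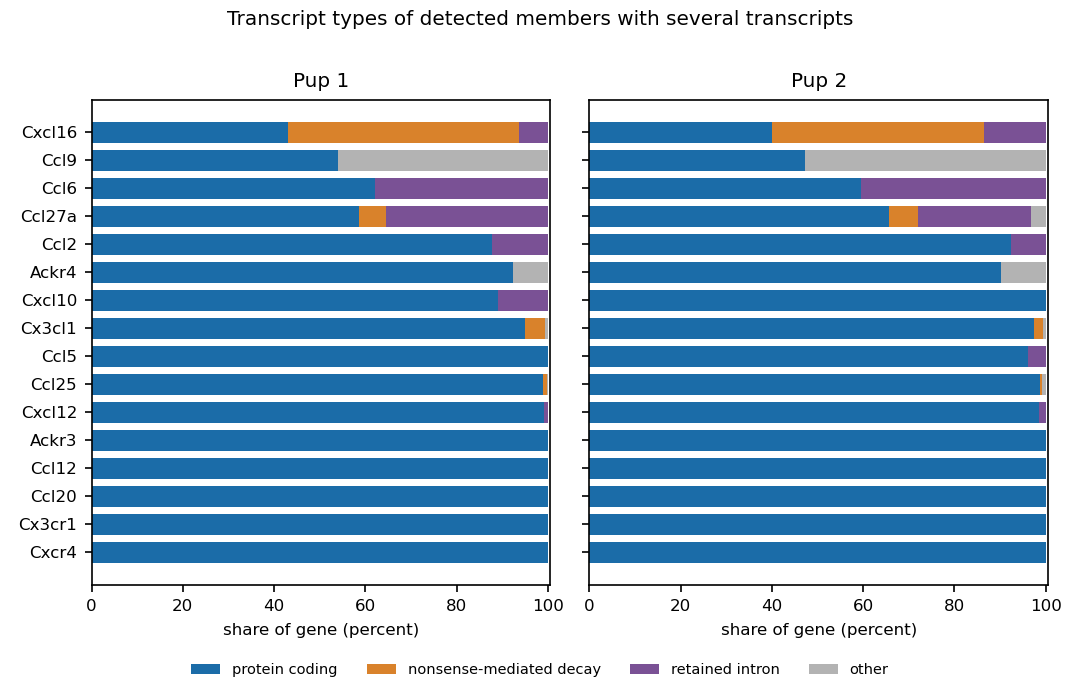
Share of each gene's TPM (percent) by annotated transcript type in pup 1 (left) and pup 2 (right) for the 16 detected members with more than 1 annotated transcript, ordered by coding share. Cxcl16, Ccl9, Ccl6 and Ccl27a have coding shares under 70% in both pups, and 10 of the 16 genes have 90% or more in both.

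For several abundant ligands a large share of the TPM was assigned to transcripts not annotated as protein coding. The shares are the deposited percentages of each gene's TPM, which weigh short transcripts more than counts do. Of the 24 detected members 16 have more than 1 annotated transcript, and in 10 of these the coding transcripts took at least 90% in both pups. In 4 they took under 70% in both pups. Cxcl16-202, annotated as a target of nonsense-mediated decay, took 50.7% of Cxcl16 in pup 1 and 46.5% in pup 2, against 43.0% and 40.1% for the coding Cxcl16-201. Ccl6-202, annotated with a retained intron, took 37.9% and 40.2% of Ccl6. The coding Ccl6-201 stood at 49.6 and 51.1 TPM, below the coding Cx3cl1-201 at 65.55 and 66.59 TPM. The place of Ccl6 above Cx3cl1 thus holds for gene totals only. Ccl9-202, a processed transcript of 398 bases, took 46.1% and 52.7% of Ccl9, whose coding transcript is 3006 bases long. For Ccl25, by contrast, the coding Ccl25-201 took 97.2% in both pups. Cx3cl1-201 took 95.1% and 97.6% of Cx3cl1. Ccl20 was divided between Ccl20-202 (73.5% and 78.7%) and Ccl20-203 (24.8% and 18.6%), whose coding sequences differ by 3 bases. Ccl27a has 20 listed transcripts, some of them at 0 in both pups. Its leading one, Ccl27a-202 (29.6% and 35.4%), holds no adjacent cysteine codons, whereas Ccl27a-206 (20.2% and 24.9%) holds them at codon 78.

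Most members differed little between the littermates, about as much as all genes tested did. Between-pup ratios, pup 1 over pup 2, were computed from expected counts with effective library sizes by the TMM method and an exact 95% interval. Of the 46 members with a summed count of 10 or more, 0 had an interval wholly beyond 2-fold, beside 0.796% of all 19088 genes tested. At 1.5-fold it was 1 member, Ccl20, beside 1.48% of all genes. The interval held 1 in 34 members (73.9%), against 70.4% of all genes tested, and it lay above 1 in 9 members and below 1 in 3. Of the 24 detected members, Ccl20 (2.21) and Ccl9 (1.39) had the highest ratios, and the other 22 lay between 0.802 and 1.24. The median log2 ratio was 0.064 over members and 0.0061 over all genes tested. Taken without sign, its median was 0.170 over members and 0.134 over all genes tested. The other 10 members had too few reads for a ratio, Cxcl3 among them with none in either pup.

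**Figure D5:**
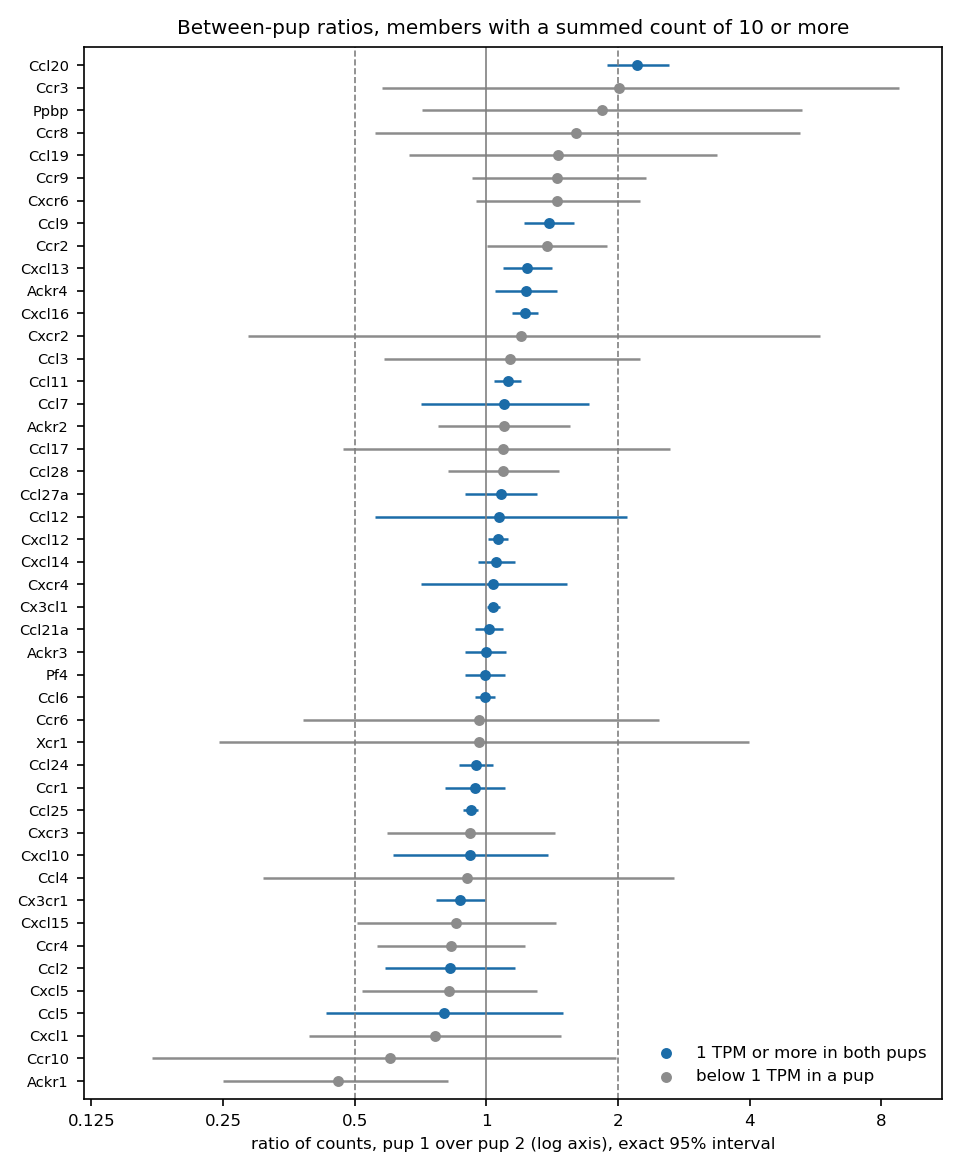
Ratio of expected counts, pup 1 over pup 2 (log axis), with exact 95% intervals for the 46 members with a summed count of 10 or more, detected members in blue and the others in grey. Lines mark equality and 2-fold either way, and Ccl20 has the highest ratio at 2.21.

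Ccl20 had 569 counts in pup 1 and 206 counts in pup 2, a ratio of 2.21 (95% interval 1.89 to 2.61). The whole interval lay above 1.5, but its lower end stayed below 2. Ccl9 had 640 and 369 counts, a ratio of 1.39 (1.22 to 1.58). Cxcl13 had a ratio of 1.24 (1.09 to 1.41), Ackr4 1.23 (1.05 to 1.45), Cxcl16 1.23 (1.14 to 1.31) and Ccl11 1.12 (1.04 to 1.2). All 6 were higher in pup 1 beyond counting error. Ccl25 had a ratio of 0.921 (0.885 to 0.959) and Cx3cr1 0.871 (0.766 to 0.991), both lower in pup 1. Ackr1 had the lowest ratio, 0.458 (0.251 to 0.816), on 20.1 and 35.0 expected counts, and its posterior mean level was 1.39 TPM, against 0.870 TPM from expected counts. The 7 erythroid markers, led by Hba-a2, Hbb-bs, Hba-a1 and Hbb-bt, summed to 1711 TPM in pup 1 and 2575 TPM in pup 2, with 5 of 7 detected and none at 0. Their part in the Ackr1 ratio was not tested.

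Markers of other cells were set beside the Ccl20 ratio. The TPM sum of 10 epithelial markers, led by Fabp2, Lgals4, Cldn7 and Epcam, had a ratio of 1.06 and that of 10 macrophage markers 1.02. These are ratios of TPM sums, whereas the Ccl20 ratio is of scaled counts. Fabp2 alone gave 12825 and 11961 TPM of the epithelial sums of 18754.5 and 17741.5 TPM. The 8 neutrophil markers, of which 5 were detected, summed to 12 TPM in pup 1 and 10.0 TPM in pup 2. They were led by S100a8 (4.84 and 2.85 TPM), S100a9 (2.28 and 2.64 TPM), Ngp (1.65 and 1.78 TPM) and Camp (1.39 and 1.31 TPM), and Ly6g had 3 reads in pup 1 and 0 in pup 2. Of the cytokines known to induce Ccl20, Il1a stood at 8.15 TPM in pup 1 and 14.8 TPM in pup 2, Il1b at 0.290 and 0.260 TPM and Tnf at 0.220 and 0.130 TPM, and Il17a had no read. HOX genes of groups 9 to 13, which mark the hind part of the body axis and were added after their values were seen, summed to 14.5 TPM in pup 1 and 2.41 TPM in pup 2. Their part in the Ccl20 ratio was not tested.

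Upstream sequence is shown for Ccl25, the highest member, and for Ccl20, the detected member that differed most between pups. The 250 bases before the annotated start come from RefSeq (GRCm38.p6), which held windows for 44 of the 56 members, 48 windows in all. They are shown 5′ to 3′ on the gene's strand, Ccl25 at chr8:4349338-4349587 and Ccl20 at chr1:83116516-83116765, both on the plus strand. Capitals mark a CATAAA word and a TATAAA word in the first and a kappa B word in the second, searched on both strands.
Ccl25: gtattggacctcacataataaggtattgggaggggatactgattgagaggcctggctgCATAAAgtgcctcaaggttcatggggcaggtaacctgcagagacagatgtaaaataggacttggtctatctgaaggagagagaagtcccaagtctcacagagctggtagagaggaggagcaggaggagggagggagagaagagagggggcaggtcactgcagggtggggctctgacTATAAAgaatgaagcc
Ccl20: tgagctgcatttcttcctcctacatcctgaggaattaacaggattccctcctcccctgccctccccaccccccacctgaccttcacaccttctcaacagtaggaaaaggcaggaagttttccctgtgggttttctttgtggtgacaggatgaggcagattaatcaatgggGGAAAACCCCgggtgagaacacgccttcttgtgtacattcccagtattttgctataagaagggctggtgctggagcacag
The Ccl25 window holds CATAAA, a word bound by CDX homeobox factors, starting 192 bases before the start and TATAAA starting 16 bases before it. The Ccl20 window holds a kappa B word on the minus strand, starting 80 bases before the start. Among the 48 member windows 10 held CATAAA (20.8%), against 10.8% of all 32851 windows, and 14 held TATAAA (29.2%), against 12.4%. A kappa B word stood in 10 member windows (20.8%), against 7.25% of all. A match is a run of letters, and no binding was measured.

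Genes that serve chemokines were counted beside the 59.1% of all protein-coding genes detected. Of 23 genes for receptor signalling 16 were detected, led by Rac1 (236 and 217 TPM), Gnai2 (212 and 196 TPM), Gnai3 (81.2 and 79.9 TPM) and Rgs2 (72.5 and 69.6 TPM). Among its genes known from leukocytes, Rgs1 stood at 9.43 and 10.9 TPM, Rac2 at 3.42 and 2.88 TPM and Itgb2 at 1.66 and 1.34 TPM. The integrin Itgb7, which carries lymphocytes to the gut, stood at 1.06 and 0.750 TPM, and the guanine exchange factor Dock2 at 0.480 and 0.390 TPM. Vav1, Pik3cg, Itgal, Rgs18 and Pik3r5 were the others of the list not detected. All 14 genes that modify, shed or bind chemokines were detected. They included the protease Ctsb (625 and 588 TPM), the heparan sulphate carrier Sdc4 (73.8 and 82.4 TPM), the peptidase Dpp4 (42.9 and 53.4 TPM), which trims ligands such as Cxcl12, and the tyrosine sulphotransferase Tpst2 (36.6 and 38.5 TPM). Adam10, which sheds Cx3cl1 and Cxcl16, stood at 26.9 and 27.4 TPM. Of 20 inducers, their receptors and homing molecules 13 were detected. These were led by the receptors Tnfrsf1a (87.6 and 86.8 TPM), Ltbr (83.8 and 88.6 TPM) and Ifngr1 (73.5 and 72.4 TPM) and the inhibitor Nfkbia (30.6 and 28.0 TPM). Among the cytokines of the list, Il1a and Ltb (1.38 and 1.97 TPM) were detected. Tnf and Il1b were not, Ifng had 1 read in pup 1 and none in pup 2, and Il17a and Ifnb1 had none in either pup. Madcam1, the vascular ligand of gut-homing integrin, stood at 12.4 TPM in pup 1 and 10.5 TPM in pup 2. In none of these 3 lists was a gene called over 2-fold apart between pups, beside 0.796% of all genes tested.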

How the data were processed

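Libraries from the intestine of 2 littermate pups were analysed as 1 group. The authors deposited gene and transcript tables of expected counts (estimated reads, reads shared between features being divided), TPM, FPKM and posterior mean estimates of these, per the file headers. Transcript shares within a gene were deposited in percent, and the authors scaled TPM over all features including the spike-ins. A deposited text file names the mm10 assembly and GENCODE M4. Which aligner and quantifier were run, in which version and with which strand setting, is not given here. Names, positions and transcript sequences came from GENCODE M21 (GRCm38), matched by identifier for 42462 of 43346 Ensembl genes (98.0%), and promoters from RefSeq.

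The members, the 38 pairs and the 17 gene lists were chosen with earlier results of these data known. Members at a mean of 1 TPM or more are named with both pups' values, the others to account for the whole family, with pairs set on a constant of 0.1 TPM. The 4 highest genes of each list were to be named, with those of the lists not used in a result standing in the closing section, and further list genes were chosen after their values were seen. The innate lymphoid list is not reported here. A direction within a pair is stated where both pups have the same sign and the mean exceeds the SD.

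Expected counts were rounded to whole numbers for between-pup ratios. Library sizes were made effective by TMM (edgeR 4.0.16, R 4.3.3), with DESeq2 1.42.0 size factors as an alternative. Exact (Clopper-Pearson) intervals came from SciPy 1.17.1. Depth was 44568098 and 34797495 counts. Other steps used pandas 2.3.3, numpy 2.4.6 and matplotlib 3.10.9 in Python 3.11.15. The between-pup rule was tested on simulated data with known fold changes. Motifs were searched on both strands, and shared words are runs of 31 bases found in both genes.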

Additional observations from a re-analysis of the deposited data

How the results depend on the processing

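No paired analysis was possible because both libraries belong to 1 group. With each pup alone, 25 to 27 members were at 1 TPM or more, 19 to 21 of them ligands and 6 receptors, the ligand sum was 658 to 667 TPM, the receptor sum 27.0 to 27.8 TPM and their ratio 24.0 to 24.4. The between-pup ratio has no value without a pup. At 0.5 TPM, 11 receptors and 36 members were detected, and at 2 TPM 4 receptors and 19 members. The ligand sum was 587 TPM without Ccl21a and Ccl27a and 703 TPM with their copies added, an alternative chosen after seeing the data, and 21.4 and 25.7 times the receptor sum. Members over 2-fold apart numbered 5 with spike-in totals (Ccl24, Ccl6, Ccl25, Ackr1 and Cx3cr1) and 1 at 1.5-fold (Ccl20), and 0 under the other settings. Of all genes, 152 were over 2-fold apart as reported, 5603 with spike-in totals, 64 at a summed count of 50 or more, 283 at 1.5-fold and 81 with posterior mean counts. Spike-in totals rest on 534 and 200 reads and move the median log2 ratio of all genes to -1.09, and with them Ccl20 stood at 1.03. The ligand was higher in 29 pairs under each TPM setting and in 22 on counts without length normalisation and with 1 count added, where 6 mean log2 ratios had the opposite sign: Ccl2 (-0.26), Ccl7 (-0.94) and Ccl12 (-2.00) over Ccr2, Xcl1 over Xcr1 (-0.90), Ccl17 over Ccr4 (-2.04) and Cxcl2 over Cxcr2 (-0.56). For Ccl2 over Ccr2 the pups had opposite signs there, and the added constant differed as well as the length step, so the cause was not tested. With 2 littermates, levels near 1 TPM and receptors with few reads are the least certain values.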

Other observations

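Marker lists that no result above turned on were measured too. All 8 blood endothelial markers were detected, led by Plvap (87.5 ± 0.976 TPM), Egfl7, Esam and Pecam1, and all 6 lymphatic markers, led by Lyve1 (21.4 ± 1.00 TPM), Pdpn, Mmrn1 and Reln. All 8 fibroblast markers were detected, led by Col3a1 (476 ± 11.5 TPM), Col1a1, Dcn and Col1a2, and smooth muscle was led by Actg2, Acta2, Myl9 and Tpm2. Of the dendritic cell markers 4 of 7 were detected, led by Batf3 (5.66 ± 0.226 TPM), Zbtb46, Siglech and Itgax. Mast cell markers were detected in 4 of 6, Tpsb2 (5.83 ± 0.636 TPM), Cma1, Cpa3 and Mcpt4. After Trac and Lck the T cell list continued with Cd3g (0.810 ± 0.467 TPM) and Cd4 (0.635 ± 0.0495 TPM), and after Ighm and Cd79b the B cell list with Cd79a (0.195 ± 0.0212 TPM) and Ms4a1 (0.105 ± 0.0212 TPM).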
